A study of Mus musculus with 9 samples.

Results

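Cathepsins are the proteases of the lysosome, and the 10 cathepsin genes Ctsa, Ctsb, Ctsc, Ctsd, Ctse, Ctsf, Ctsh, Ctsk, Ctsl and Ctsz are described here across cultured mouse macrophages. They were taken by gene name from a table of 46078 genes, each name matching 1 row. The study measured RNA by sequencing in 9 libraries, 3 from each of 3 kinds of macrophage culture, and all of them came from mice of the inbred strain C57BL/6J. BMM were bone marrow macrophages, whose medium the labels do not describe. FLM_M were macrophages from fetal liver of gestational day 15 to 19, grown with 20% fetal bovine serum and 30% L-cell supernatant, which carries the macrophage growth factor M-CSF. FLM_G came from fetal liver of the same days and were grown with 30 ng/ml recombinant GM-CSF, a growth factor that alveolar macrophages of the lung depend on, and 10% serum. Every culture was 8 weeks old or older, and the study presents its M-CSF-responsive cells as immortal. The labels name no genotype that differed between the groups. The comparisons ask how the 3 kinds of culture differ.

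Cathepsins are made as inactive precursors, carried to the lysosome largely by receptors for mannose 6-phosphate or by sortilin, and activated there by cleavage in acid. They fall into cysteine proteases (here Ctsb, Ctsc, Ctsf, Ctsh, Ctsk, Ctsl and Ctsz), aspartic proteases (Ctsd and Ctse) and a serine carboxypeptidase (Ctsa). In macrophages they degrade what the cell has engulfed and trim antigens and the invariant chain for MHC class II presentation, and cystatins hold the cysteine members in check. Transcription factors of the TFEB and MITF family bind E-box sequences near many lysosomal genes.

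Levels are in FPKM, which corrects fragment numbers for transcript length and library size, so levels of different genes can be set side by side. They were scaled between libraries so that the typical gene was level (factors 0.801 to 1.14). Differences are log2 fold changes of FPKM + 1, which understates changes of low genes, with their standard error (SE) and the adjusted p of a limma fit over 11952 genes. A gene is called higher or lower at an adjusted p under 0.05. Folds are ratios of group mean FPKM. Genes counted as changed at least 2-fold are instead those called with a log2 fold change of FPKM + 1 of at least 1 in size. Since the wells were plated in triplicate and the labels name no separate animals or cultures, the p-values rest on a spread between libraries that may be technical. From the smallest steps in the FPKM, the libraries held about 28880000 to 35840000 reads. Libraries of 1 group correlated at Pearson 0.986 to 0.992 across genes, and libraries of different groups at 0.785 to 0.936.

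All 10 listed macrophage markers, among them Csf1r, Adgre1 and Cd68, were detected in every culture. All 5 lymphocyte markers were at 0 in every library, as were 5 of the 6 hepatocyte markers found. The other, Afp, was at 1.79 ± 0.18, 2.19 ± 0.33 and 0.91 ± 0.19 FPKM in BMM, FLM_M and FLM_G. It was called lower in FLM_G than in BMM and FLM_M (limma adjusted p = 0.00102 and 0.000135). None of the 6 erythroid, 6 fibroblast or 6 mast cell markers reached 1 FPKM in any library. The 6 dendritic cell markers summed to 0.21 to 0.27 FPKM in BMM, 0.38 to 0.52 in FLM_M and 2.13 to 3.08 in FLM_G, where Clec9a was at 2.45 ± 0.48 and the other 5 stayed under 1 FPKM. Of the 10 granulocyte markers, 8 stayed under 1 FPKM and S100a9 was at 1.21, 0.90 and 0.81 FPKM in BMM and 0 in all fetal liver libraries, while S100a8 was at 1.94 ± 0.15 FPKM in BMM, 9.51 to 12.3 in FLM_M and 53.3 ± 3.5 in FLM_G (SD, n = 3); all 10 summed to 2.86 to 3.67, 9.51 to 12.3 and 49.7 to 56.7 in the 3 cultures. The macrophage markers summed to 7981 to 8394, 6096 to 6283 and 26900 to 27150 FPKM, most of it Lyz2, while Csf1r was at 368 ± 8, 433 ± 28 and 119 ± 5. The part of these differences in the cathepsin results was not tested. The BMM libraries had the Y-linked gene Ddx3y at 8.47 to 10.4 FPKM and Xist at 0 to 0.0044, and the fetal liver libraries had Ddx3y at 0 to 0.017 and Xist at 41.3 to 74.3. Organ and sex pattern moved with the cultures. A gestational day is given only for the fetal liver cultures, so developmental stage may have differed as well. The medium of BMM, which is not described, may have differed too. These cannot be told apart from each other as the source of a difference from BMM. Between FLM_M and FLM_G, growth factor and serum changed together and cannot be told apart either.

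The sequences before the start sites of 5 cathepsin genes are shown because E-boxes lie in 4 of them and Ctsk, the gene with the largest difference between cultures, has none in its window. They are RefSeq promoters of GRCm38.p6, in which 7 of the 10 genes were matched (Ctsb, Ctse and Ctsh were not) with 8 start sites. Each run is 150 bases, 5′ to 3′ on the gene's strand, and capitals mark the E-box CACGTG, which reads the same on both strands.
Ctsa, second start site, chr2:164833623-164833772, + strand, bases -150 to -1: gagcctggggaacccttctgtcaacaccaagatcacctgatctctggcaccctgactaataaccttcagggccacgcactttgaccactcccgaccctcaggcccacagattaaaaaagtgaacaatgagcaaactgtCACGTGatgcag
Ctsd, chr7:142387828-142387977, - strand, bases -150 to -1: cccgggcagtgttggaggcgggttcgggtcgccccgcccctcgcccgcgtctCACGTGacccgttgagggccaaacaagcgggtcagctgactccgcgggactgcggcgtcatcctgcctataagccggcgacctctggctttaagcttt
Ctsf, chr19:4855015-4855164, + strand, bases -150 to -1: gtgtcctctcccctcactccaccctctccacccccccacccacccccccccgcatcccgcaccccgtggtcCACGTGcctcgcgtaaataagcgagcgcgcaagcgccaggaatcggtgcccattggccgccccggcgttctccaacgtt
Ctsk, chr3:95499060-95499209, + strand, bases -150 to -1: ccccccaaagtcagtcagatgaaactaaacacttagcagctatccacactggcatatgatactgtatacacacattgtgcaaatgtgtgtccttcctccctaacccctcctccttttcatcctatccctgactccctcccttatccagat
Ctsl, chr13:64370621-64370770, - strand, bases -250 to -101: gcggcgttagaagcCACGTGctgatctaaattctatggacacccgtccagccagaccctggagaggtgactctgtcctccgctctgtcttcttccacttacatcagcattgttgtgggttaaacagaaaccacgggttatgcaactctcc

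In windows of 250 bases before to 50 after the start, CACGTG was found in 4 of the 8 cathepsin promoters and in 7.15% of 32851 promoters of that length. It lay at bases -98 to -93 and -245 to -240 of Ctsd, -79 to -74 of Ctsf, -236 to -231 of Ctsl, and -12 to -7 and 6 to 11 of the second Ctsa start. The longer CLEAR element of lysosomal genes, which has CACGTG at its core, was searched only as a fixed string of bases. That exact string was in none of the 8 and in 0.326% of all. Forms that differ from it at any base were not searched, so these promoters may still hold a CLEAR element. Of the other motifs searched on both strands, TCATGTG (a MITF-type M-box, 3.77% of all promoters) was found in 1, at bases 22 to 28 of the second Ctsa start, and GAGGAAGT (a PU.1-type site, 3.2%) in 1, at bases -151 to -144 of Ctsc. TGANTCA, an AP-1-type site found in 7.81% of promoters, was in none of the 8. A match of letters is a description of the window. Of the 4 genes with an E-box, Ctsd, Ctsf and Ctsa were higher in FLM_G than in BMM, and Ctsl was lower. Whether an E-box has a part in the level of any member was not tested.

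Within the summed FPKM of the 10 genes, the cultures differed in the shares of several genes. Ctsd held the largest share in every culture. Ctss, at 1355 ± 60, 1285 ± 53 and 2214 ± 117 FPKM in BMM, FLM_M and FLM_G, is not in this sum. Ctsd made up 44.9% ± 1.3 (SD, n = 3) of the summed FPKM of the 10 genes in BMM, 36.7% ± 1.3 in FLM_M and 62.1% ± 0.6 in FLM_G. Ctsb held 29.7% ± 0.9, 30.3% ± 0.4 and 9.57% ± 0.12. Its share was thus similar in BMM and FLM_M and smaller in FLM_G. Ctsl fell in share from 14.2% ± 0.4 in BMM to 8.79% ± 0.42 in FLM_M and 2.76% ± 0.12 in FLM_G. Ctsz held 7.62% ± 0.29, 18.9% ± 0.9 and 12.2% ± 0.2, its largest share being in FLM_M. Ctsk held 0.026% ± 0.005 and 0.027% ± 0.003 in BMM and FLM_M and 9.42% ± 0.44 in FLM_G.

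**Figure D1:**
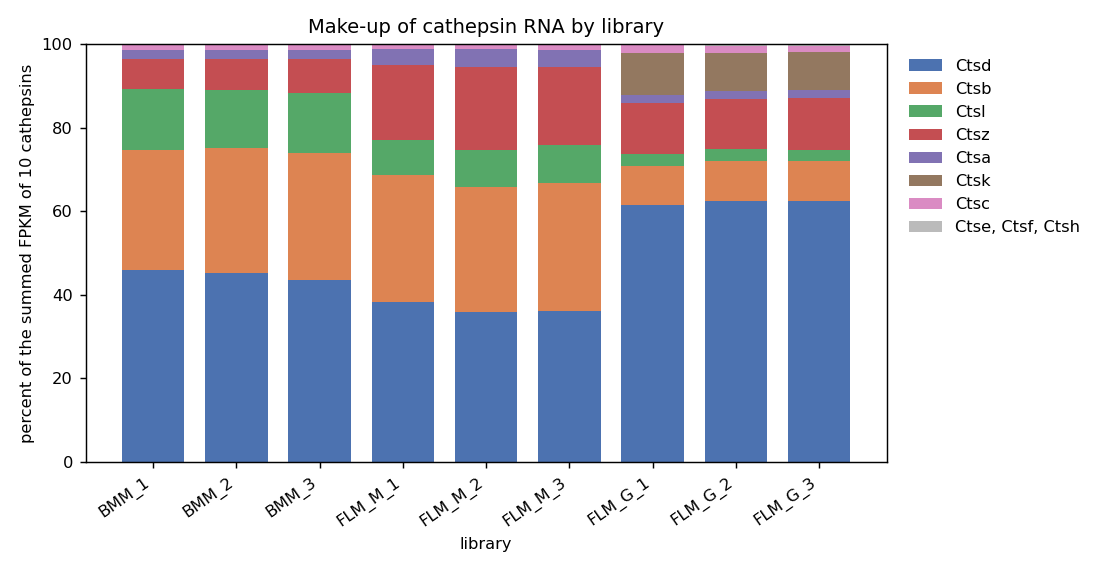
Stacked bars of the share of each gene in the summed FPKM of the 10 cathepsins (y axis, percent) in each of the 9 libraries (x axis). Libraries of 1 culture are alike; Ctsk is visible as a band of 9.15% to 9.93% in the FLM_G libraries, where Ctsb and Ctsl take smaller shares.

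The sum of the 10 genes was 5979 to 6315 scaled FPKM in BMM, 4726 to 4980 in FLM_M and 10900 to 11757 in FLM_G, so the groups did not overlap. As a share of all FPKM in a library, which needs no scaling, the 10 genes held 1.55% to 1.71% in BMM, 1.35% to 1.49% in FLM_M and 1.71% to 1.78% in FLM_G. On that measure FLM_G and BMM overlapped. The scaling raised all FLM_G levels, and without it the median gene lay 0.34 (log2) below BMM and 0.39 below FLM_M. Called genes then divided into 2081 higher and 6775 lower in FLM_G against BMM, in place of 4044 and 4081, and into 2218 higher and 7075 lower against FLM_M, in place of 4246 and 4195. Differences below are relative to the typical gene. As in any bulk sample, fewer cells of a kind and less RNA per cell cannot be told apart.

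Of the 10 genes, 9 passed the filter on low values (1 FPKM in at least 3 libraries) and 8 were at 1 FPKM or more in every library. Ctsh passed through BMM and FLM_G. Ctse, an aspartic protease of gastric and some immune cells (chromosome 1, 131638306 to 131675505), did not pass: all 6 fetal liver libraries listed it at 0, and BMM had 0.40, 0.37 and 0.23 FPKM. It was therefore not tested in the main fit.

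**Figure D2:**
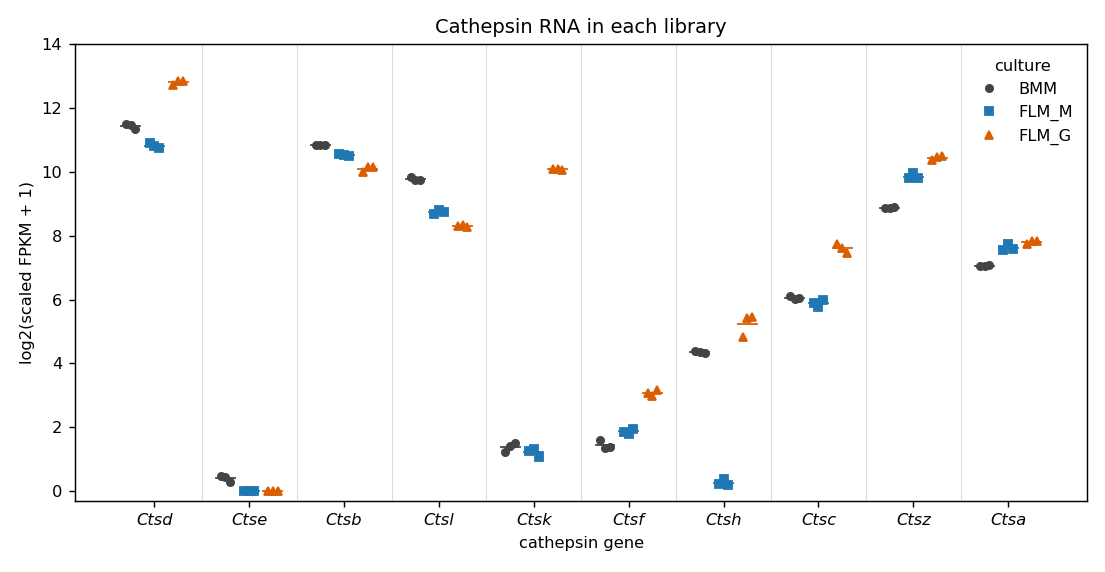
Level of each of the 10 cathepsin genes (x axis) as log2(scaled FPKM + 1) (y axis) in the 3 libraries of each culture (points) with their mean (line). Ctsk is near 1 to 2 on this scale in BMM and FLM_M and near 10 in FLM_G, Ctsh is near 0 in FLM_M alone, and Ctsb and Ctsl step down from BMM to FLM_M to FLM_G while Ctsz and Ctsf step up.

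Ctsd, the main aspartic endopeptidase of the lysosome (chromosome 7, 142375911 to 142388038), was the most abundant member in all cultures, ranking 14th of the tested genes by mean FPKM in BMM, 20th in FLM_M and 18th in FLM_G. It was at 2907, 2803 and 2596 FPKM in BMM, at 1892, 1786 and 1709 in FLM_M, and at 6693, 7333 and 7311 in FLM_G. No library of one culture overlapped another. FLM_G exceeded BMM by 1.36 (SE 0.08, limma adjusted p = 4.67e-07; 2.57-fold) and FLM_M by 1.99 (adjusted p = 3.21e-08; 3.96-fold), while FLM_M was lower than BMM by -0.62 on the log2 scale (adjusted p = 0.000201). On the deposited counts this last difference missed the threshold (edgeR -0.21, adjusted p = 0.627; DESeq2 -0.30, adjusted p = 0.442).

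The cysteine endopeptidases Ctsb and Ctsl were, like Ctsd, lower in FLM_M than in BMM, but unlike Ctsd they were lowest in FLM_G. Ctsb, which also removes dipeptides from the C-terminal end of its substrates (chromosome 14, 63122462 to 63145923), was at 1813, 1848 and 1824 FPKM in BMM, 1516, 1485 and 1444 in FLM_M, and 1028, 1133 and 1131 in FLM_G. It was lower in FLM_M than in BMM by -0.30 on the log2 scale (SE 0.06, limma adjusted p = 0.00286) and in FLM_G than in FLM_M by -0.43 (adjusted p = 0.000152). Ctsl, an endopeptidase with roles in protein turnover and antigen processing (chromosome 13, 64359337 to 64370890), was at 909, 854 and 863 FPKM in BMM, 412, 450.3 and 427 in FLM_M, and 315, 323 and 310.0 in FLM_G. The 3 steps of both genes are separate, with no overlap between cultures. Ctsl was lower in FLM_M than in BMM by -1.03 (SE 0.05, limma adjusted p = 6.06e-07), in FLM_G than in BMM by -1.47 (adjusted p = 2.07e-08) and in FLM_G than in FLM_M by -0.44 (adjusted p = 6.5e-05). For Ctsb the change from BMM to FLM_G was -0.74 (adjusted p = 4.97e-06). On the deposited counts Ctsb was not lower in FLM_M than in BMM (edgeR 0.18, adjusted p = 0.687). The ratio of Ctsl to Ctsb within a library was 0.479 ± 0.020 in BMM, 0.290 ± 0.017 in FLM_M and 0.289 ± 0.016 in FLM_G, so that the difference between the fetal liver cultures was shared by both genes. Cdk20, the coding gene 61.4 kb to one side of Ctsl, was at 19.5 ± 1.3, 8.25 ± 0.18 and 4.98 ± 0.81 FPKM, in the order of Ctsl. Aaed1, 46.6 kb to the other side, was at 10.2 ± 0.7, 6.79 ± 0.75 and 9.40 ± 0.55 FPKM and did not follow that order.

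Ctsk, the collagen-degrading cathepsin best known from bone-resorbing osteoclasts (chromosome 3, 95499256 to 95509362), separated FLM_G from both other cultures. It was at 1.34, 1.67 and 1.84 FPKM in BMM, at 1.42, 1.49 and 1.12 in FLM_M, and at 1083, 1081 and 1072 in FLM_G. The BMM and FLM_M libraries overlapped (limma adjusted p = 0.158), a difference that passed without BMM replicate 1 (adjusted p = 0.0395). FLM_G lay 8.69 above BMM (SE 0.08, adjusted p = 1.19e-11) and 8.85 above FLM_M (adjusted p = 7.92e-12), or 667-fold and 805-fold in FPKM. In rank Ctsk went from 10121st and 10542nd of 11952 genes to 57th. Its ratio to Ctsl within a library was 0.0019 ± 0.0003 in BMM, 0.0031 ± 0.0004 in FLM_M and 3.41 ± 0.06 in FLM_G.

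The genes beside Ctsk differed far less between the cultures. Arnt, a partner of bHLH-PAS transcription factors that ends 2.02 kb before Ctsk, was at 4.29 ± 0.92, 3.16 ± 0.99 and 3.71 ± 1.19 FPKM in BMM, FLM_M and FLM_G. Ctss, the cathepsin that trims the invariant chain in antigen-presenting cells and lies 17.4 kb after Ctsk on the same strand (chromosome 3, 95526786 to 95556403), was at 1421, 1303 and 1341 FPKM in BMM, 1224, 1321 and 1310.2 in FLM_M, and 2347, 2169 and 2126 in FLM_G. Ctss was thus high in every culture and 1.63-fold higher in FLM_G than in BMM (0.71 on the log2 scale, SE 0.07, limma adjusted p = 1.52e-05), with BMM and FLM_M overlapping (adjusted p = 0.387). Neighbouring genes were chosen by position after the values of Ctsk had been seen.

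Because Ctsk is an osteoclast gene, the other listed osteoclast markers stand beside it. The 9 others summed to 18.1 to 18.7 FPKM in BMM, 23.9 to 25.3 in FLM_M and 1093 to 1163 in FLM_G. Most of that sum in FLM_G was Atp6v0d2, a vacuolar ATPase subunit, at 954 ± 50 FPKM against 5.32 ± 0.29 in BMM and 15.8 ± 0.8 in FLM_M. The phosphatase gene Acp5 was at 158 ± 15 in FLM_G, 4.38 ± 0.07 in BMM and 0.059 ± 0.102 in FLM_M. The calcitonin receptor gene Calcr, a defining marker of the osteoclast, was at 0 in every library, and Ocstamp, Oscar and Itgb3 stayed under 1 FPKM in all. Nfatc1, the master factor of osteoclasts, was at 7.12 ± 0.07, 7.01 ± 0.80 and 6.16 ± 0.28 in BMM, FLM_M and FLM_G and was not called in any comparison (adjusted p of 0.0607 or more), and Mmp9 was at 0.096 ± 0.050, 1.30 ± 0.22 and 0.012 ± 0.021, highest in FLM_M. Acp5 and Atp6v0d2 were higher in FLM_G than in BMM along with Ctsk, by 4.89 and 7.24 (limma adjusted p = 2.84e-10 and 5.49e-12). Dcstamp, at 0.89 ± 0.05, 0.28 ± 0.09 and 4.27 ± 0.68 FPKM, passed the filter through FLM_G.

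Ctsh, an aminopeptidase that also processes surfactant protein in the lung (chromosome 9, 90054152 to 90076089), was nearly absent from FLM_M. It was at 20.0, 19.4 and 18.9 FPKM in BMM, at 0.16, 0.30 and 0.15 in FLM_M, and at 27.3, 41.9 and 42.5 in FLM_G, where replicate 1 lay below the other two. The cultures did not overlap. FLM_M differed from BMM by -4.09 on the log2 scale (SE 0.15, limma adjusted p = 8.82e-08) and FLM_G above FLM_M by 4.97 (adjusted p = 6.92e-09); with a pseudocount of 0.1 these became -6.05 and 6.96. In FPKM the differences were 96.2-fold and 184-fold. FLM_G exceeded BMM by 0.88 (adjusted p = 0.000868). Of the nearest coding genes, Morf4l1, 15.6 kb after Ctsh, did not follow it, at 22.5 ± 1.1, 19.1 ± 2.4 and 20.8 ± 0.1 FPKM. Rasgrf1, 27.2 kb before Ctsh, was near 0 in all cultures and so too low to compare.

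Ctsc, dipeptidyl peptidase 1, which activates the serine proteases of granulocyte and mast cell granules (chromosome 7, 88278085 to 88310888), was at 67.9, 63.6 and 65.9 FPKM in BMM, 57.8, 53.8 and 62.4 in FLM_M, and 213, 195 and 174 in FLM_G. FLM_G was higher than both others, by 1.54 against BMM (SE 0.08, limma adjusted p = 3.2e-07) and 1.72 against FLM_M (adjusted p = 1.31e-07). FLM_M and BMM did not differ past the threshold (-0.18 on the log2 scale, adjusted p = 0.106; 0.0426 in a fit of those 6 libraries alone). The granule proteases that Ctsc activates were scarcely present: Elane was at 0 in all libraries, and Ctsg was at 0, 0.15 and 0.16 FPKM in BMM and at 0 in both fetal liver cultures.

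Ctsf, a cysteine protease able to cleave the invariant chain in macrophages (chromosome 19, 4855130 to 4860918), was the least abundant of the tested members in FLM_G. It was at 2.06, 1.58 and 1.59 FPKM in BMM, 2.62, 2.47 and 2.89 in FLM_M, and 7.50, 6.82 and 7.97 in FLM_G. The 3 cultures followed in that order without overlap, with FLM_M above BMM by 0.42 (SE 0.09, limma adjusted p = 0.00448) and FLM_G above FLM_M by 1.20 (adjusted p = 2.62e-06).

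Ctsz, a carboxypeptidase also called cathepsin X (chromosome 2, 174427493 to 174439039), rose along the same order at a far higher level. It was at 464, 469.9 and 474 FPKM in BMM, 889, 986 and 890.1 in FLM_M, and 1319.9, 1415 and 1447 in FLM_G. FLM_M exceeded BMM by 0.97 (SE 0.06, limma adjusted p = 2.62e-06) and FLM_G exceeded BMM by 1.57 (adjusted p = 3.82e-08). The difference of 0.60 between the fetal liver cultures (adjusted p = 2.56e-05) shrank to 0.11 without scaling (adjusted p = 0.104) and then missed the threshold.

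Ctsa, the serine carboxypeptidase that shields the glycosidases Neu1 and Glb1 in a lysosomal complex (chromosome 2, 164832873 to 164841032), was at 131, 131 and 133 FPKM in BMM, 185, 215 and 190.1 in FLM_M, and 214, 229 and 228 in FLM_G. It was higher than in BMM in both fetal liver cultures, by 0.57 in FLM_M (SE 0.06, limma adjusted p = 8.65e-05) and 0.76 in FLM_G (adjusted p = 5.82e-06). The deposited counts gave the reverse, -1.61 and -1.95 with edgeR (adjusted p = 2.33e-06 and 1.4e-08) and -1.70 and -2.00 with DESeq2. FLM_M and FLM_G overlapped. Their difference of 0.19 (adjusted p = 0.0236) turned to -0.30 without scaling (adjusted p = 0.00117), and it missed the threshold without FLM_M replicate 1 (adjusted p = 0.0974), FLM_M replicate 3 (0.105) or FLM_G replicate 2 (0.0521). Of its partners, Neu1 was at 29.3 ± 0.6, 28.9 ± 2.0 and 56.2 ± 1.5 FPKM in BMM, FLM_M and FLM_G (0.93 higher in FLM_G than in FLM_M, adjusted p = 5.74e-07), and Glb1 was at 35.9 ± 1.4, 35.4 ± 0.3 and 35.2 ± 1.1 (adjusted p of 0.613 or more in each comparison; without scaling Glb1 was lower in FLM_G, by -0.44 against BMM, adjusted p = 2.69e-05).

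Counted together, 3 of the 9 tested members were higher and 4 lower in FLM_M than in BMM. Of all tested genes 22.7% were higher and 21.9% lower in that comparison. The median log2 change of the members was -0.18, against -0.0015 over all genes, and 2 members (Ctsl and Ctsh) changed at least 2-fold, as did 7.03% of all genes. In FLM_G against BMM 7 members were higher and 2 lower, against 33.8% and 34.1% of all genes, with a median of 1.36 against -0.00032. In FLM_G against FLM_M again 7 were higher and 2 lower, against 35.5% and 35.1%, with a median of 1.20 against 0.0017. At least 2-fold changes were seen in 6 and 5 members in these comparisons, against 18.8% and 21.4% of all genes. Both comparisons use the same FLM_G libraries. The groups did not overlap in 8 of the 9 members for FLM_M against BMM, in 9 for FLM_G against BMM and in 8 for FLM_G against FLM_M, and in 57.3%, 73.2% and 72.4% of all tested genes.

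**Figure D3:**
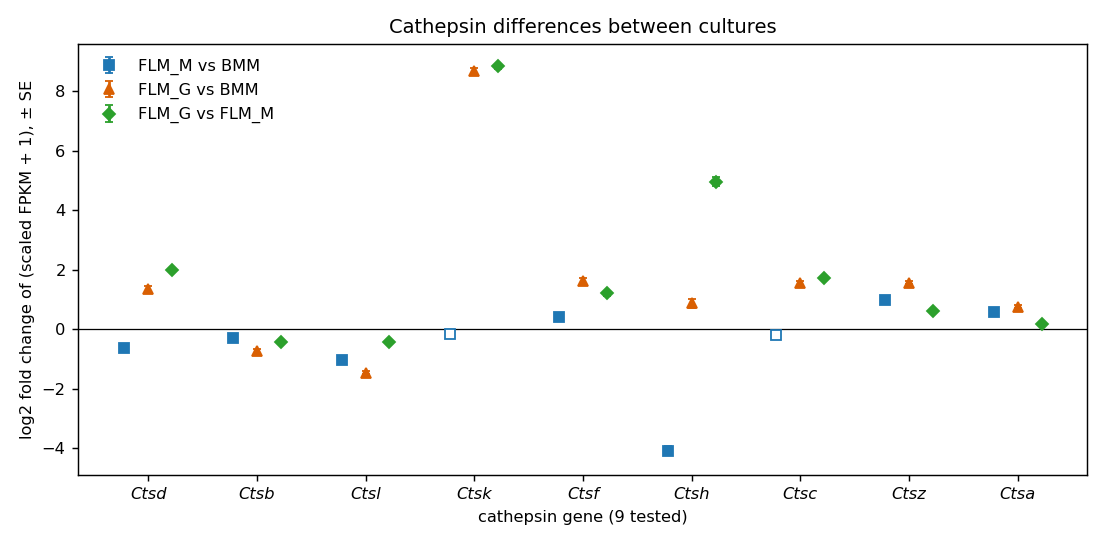
Log2 fold change of scaled FPKM + 1 (y axis, with SE) of the 9 tested cathepsins (x axis) in the 3 comparisons; filled symbols were called at an adjusted p under 0.05 and open ones were not. Ctsk in FLM_G (8.69 and 8.85) and Ctsh in FLM_M (-4.09 against BMM) lie far from the others, and Ctsb and Ctsl are below 0 in all comparisons.

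Among themselves the members formed few tight pairs. As a measure of likeness, the root mean square (RMS) difference of log2(FPKM + 1) over the 9 libraries was taken after each gene was centred on its mean. Ctsc and Ctsd were the closest pair at 0.22, followed by Ctsc and Ctsf at 0.29, Ctsf and Ctsz at 0.30, Ctsa and Ctsz at 0.33, and Ctsb and Ctsl at 0.35. Ctsk and Ctsl were the farthest apart at 4.60. The differences between cultures dominate this measure, so it describes 3 cultures more than 9 libraries.

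By the same measure, each member was set against the other tested genes with at least 20 FPKM in their highest group. Nearest to Ctsk were Plet1 (RMS 0.17), the carbonic anhydrase Car4 (0.31) and the ribonuclease Ear2 (0.39), all near 0 outside FLM_G. Near to Ctsh were the death receptor Tnfrsf21 (0.35) and the desaturase Scd2 (0.52). Tnfrsf21 was at 12.1 ± 0.6 FPKM in BMM, listed at 0 in FLM_M, and at 37.1 ± 3.1 in FLM_G. Nearest to Ctsd were the nucleoside transporter Slc29a1 (0.070), the phosphatase Ptpn1 (0.083) and the ferritin chain Fth1 (0.096). Fth1 was at 13402 ± 323, 9793 ± 447 and 35400 ± 2850 FPKM.

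Ctsl lay nearest to the matrix protein gene Tgfbi (0.041), at 264 ± 3, 124 ± 3 and 91.0 ± 2.0 FPKM, and then to Sh3bp5 (0.11) and the lactate exporter Slc16a3 (0.13). Ctsb lay nearest to the tubulins Tuba1b (0.033) and Tuba1c (0.048) and to Dgkz (0.050). Tubulin copies are close in sequence and may have shared reads. Ctsz lay nearest to Tcn2, a vitamin B12 carrier (0.040), then Il2rg (0.074) and Camk1 (0.086). Ctsa lay nearest to Jund (0.050), Tnf (0.071) and Cxx1b (0.075), Ctsc to Acat2 (0.079), Sav1 (0.082) and Cd200r1 (0.083), and Ctsf to Acot9 (0.079), Rab9 (0.10) and Psmd10 (0.10).

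The remaining cathepsin genes of the mouse were mostly silent. Of 13 other cathepsin genes, 10 were listed at 0 in all libraries, including the placental cathepsins Ctsj, Ctsm, Ctsq and Ctsr, and 2 were tested. Besides Ctss, Ctso was at 6.50 ± 0.41, 7.85 ± 0.59 and 7.15 ± 0.55 FPKM in BMM, FLM_M and FLM_G, called only in FLM_M against BMM (0.24, limma adjusted p = 0.0334).

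The lists of related genes that follow are small, and the shares of all tested genes called higher and lower stand beside their counts. Of 11 listed cathepsin inhibitors, 5 were tested; 3 were higher and 1 lower in FLM_G against BMM, and 3 higher and 2 lower against FLM_M, with 1 higher and 1 lower in FLM_M against BMM. Of all genes, 33.8% and 34.1%, 35.5% and 35.1%, and 22.7% and 21.9% were higher and lower in these comparisons. Serpinb1a passed the filter only through FLM_G, and Cst7 only through FLM_M, so these counts lean on groups where the genes are high. Cst7 was the 1 higher in FLM_M against BMM (3.47 ± 0.31 against 0.52 ± 0.19 FPKM), and Serpinb1a the 1 lower. Cystatin C, the secreted inhibitor gene Cst3, was at 371, 369 and 367 FPKM in BMM, 347, 381 and 349 in FLM_M, and 212, 225 and 229 in FLM_G. Cystatin B, the intracellular inhibitor gene Cstb, was at 496, 476 and 501 in BMM, 479, 594 and 539 in FLM_M, and 859, 877 and 967 in FLM_G. Cst3 was lower in FLM_G than in BMM by -0.73 (SE 0.05, limma adjusted p = 2.86e-06) and Cstb higher by 0.87 (adjusted p = 1.89e-05), and neither differed past the threshold between FLM_M and BMM (adjusted p = 0.588 and 0.264; Cstb passed without FLM_M replicate 1, adjusted p = 0.0446). The summed FPKM of the 7 cysteine members was 3.79 ± 0.06 times that of both cystatins in BMM, 3.24 ± 0.22 times in FLM_M and 3.68 ± 0.16 times in FLM_G. Ctss, an abundant cysteine cathepsin that is not a member, was left out of that sum, so the ratio covers the members only. Serpinb1a, an inhibitor of neutrophil serine proteases and of cathepsin G, was at 0.88, 0.63 and 0.83 FPKM in BMM, 0.087, 0.15 and 0.11 in FLM_M, and 69.3, 62.7 and 68.0 in FLM_G.

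Of 7 tested genes that process cathepsins or work with them, none was higher and 4 were lower in FLM_M than in BMM (22.7% and 21.9% of all genes), and 3 were higher and 3 lower in FLM_G than in either other culture, shares near those of all genes (33.8% and 34.1% against BMM, 35.5% and 35.1% against FLM_M). Legumain (Lgmn), the asparaginyl endopeptidase that cleaves Ctsb, Ctsh and Ctsl into their 2-chain forms, was at 386, 366 and 370.0 FPKM in BMM, 306, 292 and 304 in FLM_M, and 101, 108 and 107 in FLM_G. It was lower in FLM_G than in BMM by -1.82 (SE 0.05, limma adjusted p = 2.42e-09). Psap, the saposin precursor that binds procathepsin D, was at 1188, 1166 and 1149 FPKM in BMM, 716, 691 and 689 in FLM_M, and 5503, 5818 and 5476 in FLM_G. Psap moved in the same directions as Ctsd, by -0.74 in FLM_M (adjusted p = 6.75e-06) and 2.26 in FLM_G (adjusted p = 1.57e-09), both against BMM.

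Cd74, the invariant chain that Ctss, Ctsl and Ctsf can degrade, was at 35.8 ± 0.8 FPKM in BMM, 15.5 ± 1.3 in FLM_M and 420 ± 40 in FLM_G, where it exceeded BMM by 3.51 (SE 0.08, limma adjusted p = 1.14e-09). Ifi30, a thiol reductase that opens disulfides of antigens in the lysosome, was at 181 ± 4, 152 ± 14 and 56.7 ± 3.3. Ifi30 was lower in FLM_G than in BMM by -1.66 (SE 0.07, limma adjusted p = 6.91e-08), so these antigen-processing genes moved in opposite directions in that comparison. Its decrease in FLM_M (-0.26, adjusted p = 0.0172) missed the threshold without BMM replicate 3 (0.0525), FLM_M replicate 1 (0.062) or FLM_M replicate 3 (0.0755).

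Of 11 tested sorting genes, 2 were higher and 4 lower in FLM_M than in BMM (22.7% and 21.9% of all genes), and 3 were higher and 3 lower in FLM_G than in either other culture, no larger a share than among all genes (33.8% and 34.1%, 35.5% and 35.1%). Their largest differences were those of Sort1 and Igf2r. Sort1, the sortilin receptor that carries cathepsins and prosaposin without mannose 6-phosphate, was at 6.40, 6.42 and 6.20 FPKM in BMM, 0.11, 0.13 and 0.10 in FLM_M, and 113, 117 and 114 in FLM_G. Igf2r, the large mannose 6-phosphate receptor, was at 24.8, 25.3 and 24.5 in BMM, 10.4, 7.90 and 8.29 in FLM_M, and 3.76, 3.61 and 3.33 in FLM_G. Sort1 thus lay 3.98 above BMM in FLM_G (SE 0.04, limma adjusted p = 2.28e-11) and changed by -2.72 in FLM_M (adjusted p = 7.85e-10), whereas Igf2r was lower in both, by -1.40 in FLM_M (adjusted p = 3.47e-06) and -2.50 in FLM_G (adjusted p = 2.58e-08). M6pr, the small mannose 6-phosphate receptor, was at 57.3 ± 2.5, 60.5 ± 4.1 and 71.3 ± 1.5 FPKM in BMM, FLM_M and FLM_G, higher in FLM_G than in BMM by 0.31 (adjusted p = 0.00134). Gnptab, a subunit of the enzyme that starts the mannose 6-phosphate tag, was at 25.9 ± 2.7, 16.2 ± 1.0 and 10.2 ± 2.5 FPKM in BMM, FLM_M and FLM_G.

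Among 6 transcription factors of lysosomal and osteoclast genes, 4 were higher and 1 lower in FLM_G than in BMM, with the same numbers against FLM_M (33.8% and 34.1%, 35.5% and 35.1% of all genes). In FLM_M against BMM, 1 was higher and 1 lower (22.7% and 21.9%). Tfeb, which binds E-boxes of lysosomal genes, was at 3.06, 3.57 and 4.68 FPKM in BMM, 2.48, 2.29 and 2.64 in FLM_M, and 12.6, 13.6 and 13.8 in FLM_G. Tfec, its relative in myeloid cells, was at 1.55, 1.31 and 1.34 FPKM in BMM, 2.18, 1.87 and 2.66 in FLM_M, and 11.6, 11.2 and 10.2 in FLM_G. Mitf, which drives Ctsk in osteoclasts, was at 6.21 ± 0.05, 5.41 ± 0.43 and 10.6 ± 1.2 FPKM. In FLM_G against BMM Tfeb, Tfec and Mitf differed by 1.60 (SE 0.11), 2.32 (SE 0.10) and 0.68 (SE 0.08), with limma adjusted p of 2.52e-06, 5.51e-08 and 9.73e-05. The Mitf difference missed the threshold on the deposited counts (edgeR adjusted p = 0.413, DESeq2 0.747). Tfe3, another member of the family, was the 1 called lower, at 14.2 ± 0.5, 13.6 ± 0.6 and 11.5 ± 0.5 FPKM in BMM, FLM_M and FLM_G (-0.28 in FLM_G against BMM, limma adjusted p = 0.00159). RNA levels of these factors do not show their activity, which was not measured.

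Of the 7 other lysosomal peptidases, 4 were higher and 2 lower in FLM_M than in BMM, 4 higher and 3 lower in FLM_G than in BMM, and 4 higher and 2 lower in FLM_G than in FLM_M, against 22.7% and 21.9%, 33.8% and 34.1%, and 35.5% and 35.1% of all genes. Cpq, a carboxypeptidase, was at 7.14 ± 0.27 and 8.42 ± 0.66 FPKM in BMM and FLM_M and listed at 0 in the 3 FLM_G libraries. Dpp7, a dipeptidyl peptidase, was at 19.7 ± 2.2, 27.9 ± 2.8 and 56.9 ± 1.3 FPKM in BMM, FLM_M and FLM_G. Ggh, which trims glutamate from folates, was at 29.2 ± 2.0, 23.9 ± 0.9 and 50.8 ± 4.7. Both were higher in FLM_G than in BMM, by 1.49 (SE 0.09, limma adjusted p = 7.45e-07) and 0.78 (SE 0.08, adjusted p = 1.99e-05).

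**Figure D4:**
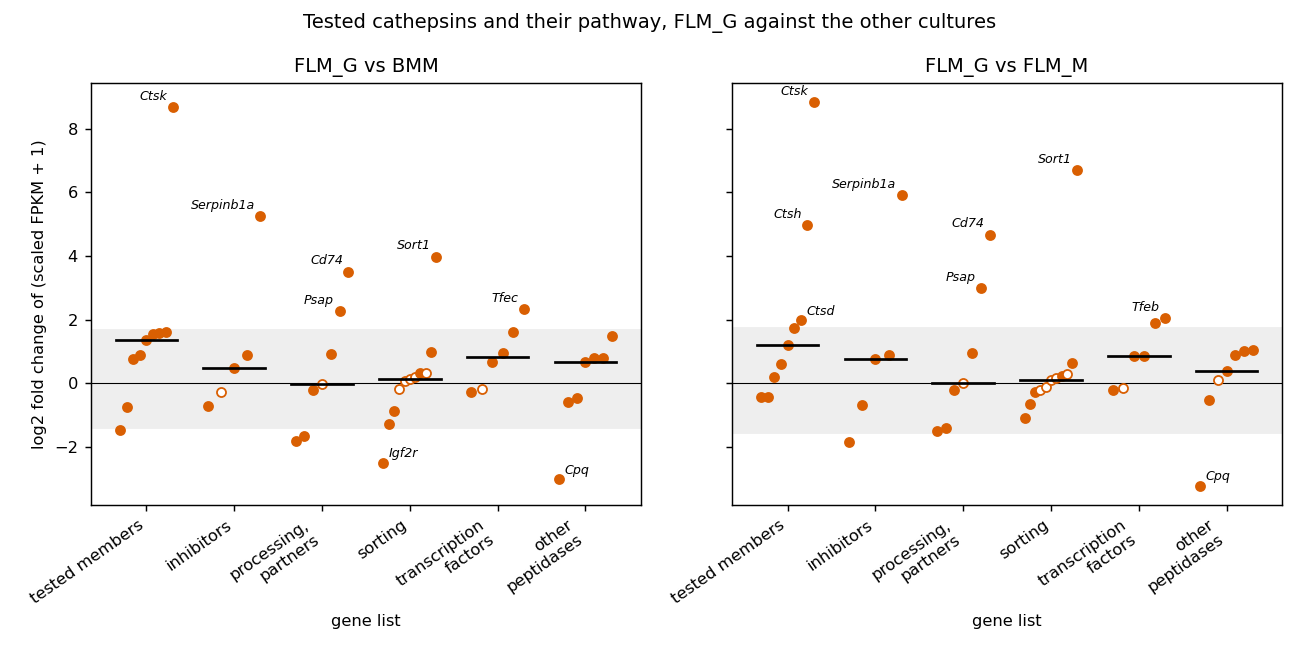
Log2 fold change of scaled FPKM + 1 (y axis) of each tested gene in 6 lists (x axis) for FLM_G against BMM (left) and against FLM_M (right); filled points were called, black lines are list medians, and the grey band holds the middle 90% of all tested genes. Ctsk, Serpinb1a, Cd74, Psap, Sort1 and Tfec lie above the band in both panels, and most other genes lie inside it.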

How the data were processed

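RNA of 9 libraries (3 per culture) was sequenced for 101 cycles from 1 end after a stranded mRNA preparation, per the labels' protocols. The submitters' processing notes list HISAT2, StringTie, cutadapt and DESeq2, with mm10 and GRCm38 as builds, and do not say what produced which table. The authors deposited FPKM and whole-number counts per gene. The deposited counts summed to 782400 to 1170813 per library, 2.47% to 3.44% of the reads implied by the FPKM (a whole number of reads, to 2%, for 15.8% to 22.6% of low values), and 36.1% of them belonged to genes whose mean FPKM was below 0.5. FPKM were therefore the main measure, and count tests (edgeR 4.0.16, DESeq2 1.42.0) alternatives. FPKM were scaled by unweighted TMM factors and tested as log2(FPKM + 1) with limma 3.58.1 (trend, R 4.3.3), a mean per group, 6 residual degrees of freedom, Benjamini-Hochberg over 11952 genes. The step was run on simulated data with 200 changed genes, and the shares recovered are for changes of 1.5-, 2- and 4-fold. They were 77.6%, 91% and 98.5% in FLM_M against BMM (11323 genes, 4 false calls). For FLM_G against BMM they were 73.1%, 89.6% and 100% (11286 genes, 6 false calls). For FLM_G against FLM_M they were 80.6%, 97% and 100% (11287 genes, 16 false calls). The simulation gave every group the BMM means and changed only genes well above the filter in BMM. It therefore does not cover genes as low in BMM as Ctsk and Ctsf, or cultures that differ in as many genes as these.

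The members and lists were chosen with earlier results of these data known. Besides the members, genes were named by rule: the 3 nearest in pattern per member (1 gene is not reported here), and list genes called at least 2-fold with at least 20 FPKM in a group. Ctss, Ctso, Ctsg, Cst3, Cst7, Cstb, Neu1, Glb1, Tfeb, Tfec, Tfe3, Mitf, M6pr, Cpq, the markers, sex genes and neighbours were chosen after their values were seen. Positions are those of GENCODE M21 (GRCm38) by Ensembl identifier.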

Additional observations from a re-analysis of the deposited data

How the results depend on the processing

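Of the alternatives run (3 other scalings, 2 other filters, another pseudocount, only the 6 libraries compared, a replicate block, a test against a 1.5-fold change, 2 count tests and leaving out each library), those on FPKM that tested for any change kept the direction of every member, apart from Ctsa in FLM_G against FLM_M, which became -0.30 without scaling. Values are log2 fold changes. Without scaling, 3 uncalled differences between FLM_M and BMM also turned: Cst3 to 0.024, Neu1 to 0.041 and Glb1 to 0.043. Members called without scaling were 3 higher and 4 lower in FLM_M against BMM, and 7 and 2 in FLM_G against BMM. In FLM_G against FLM_M they were 5 higher and 3 lower, while 2218 of all genes were higher and 7075 lower. Without the filter on low values all 10 members were tested, and Ctse joined those called lower in both fetal liver cultures against BMM. Members lower were then 5 in FLM_M and 3 in FLM_G, while 3092 and 4875 of 21953 genes were lower. With 1 library left out at a time, Neu1 ranged from -0.063 to 0.034 in FLM_M against BMM and Glb1 from -0.068 to 0.010 in FLM_G against BMM and from -0.026 to 0.031 in FLM_G against FLM_M, none of them called. Members called then numbered 3 higher and 4 to 5 lower in FLM_M against BMM, 7 and 2 in FLM_G against BMM, and 6 to 7 and 2 in FLM_G against FLM_M, and all genes called 4192 to 5509, 7239 to 8063 and 7606 to 8242. In the test against a 1.5-fold change, 1 member was higher and 2 lower in FLM_M against BMM, 6 were higher and 1 lower in FLM_G against BMM, and 5 were higher and 0 lower in FLM_G against FLM_M, while 1045, 2740 and 3162 genes were called.

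On the deposited counts, edgeR called 1300, 2458 and 2855 genes in the same 3 comparisons, with 1 member higher and 2 lower in FLM_M against BMM, 5 and 2 in FLM_G against BMM, and 4 higher and 1 lower in FLM_G against FLM_M. DESeq2 called 838, 2195 and 2628 genes, with 1 member higher and 3 lower in FLM_M against BMM, 4 and 3 in FLM_G against BMM, and 5 and 2 in FLM_G against FLM_M. In FLM_M against BMM these tests reversed Ctsa (edgeR -1.61, DESeq2 -1.70), Ctsb (0.18 and 0.097), Ctsc (0.32 and 0.24), Ggh (1.10 and 1.05), Lgmn (0.11 and 0.021), Ctss (0.41 and 0.32), Cst3 (0.17 and 0.081), Neu1 (0.61 and 0.53), Glb1 (0.45 and 0.40) and, in edgeR, Ctsk (0.041). In FLM_G against BMM they reversed Ctsa (-1.95 and -2.00) and Glb1 (0.28 and 0.21), and in FLM_G against FLM_M Ctsa (-0.34 and -0.30). The cause was not tested. Calls of members also lost on the counts, without a reversal, were Ctsd in FLM_M against BMM (edgeR and DESeq2), Ctsl in FLM_M against BMM and in FLM_G against FLM_M, Ctsb in FLM_G against BMM and Ctsz in FLM_G against FLM_M (edgeR), and Ctsf in both FLM_G comparisons and Ctsh in FLM_G against BMM (DESeq2). Ctsf did not pass edgeR's count filter, and DESeq2 gave it no adjusted p in FLM_M against BMM.

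Replicate numbers were shared across groups, but same-numbered libraries did not deviate together (r of -0.077 to 0.090, and 2 of 9 libraries correlated best with their own number in both other groups), so the numbers were not taken as pairs. With the replicate block 5140, 8018 and 8386 genes were called, against 5329, 8125 and 8441 without it, and the members called were 3 higher and 4 lower, 7 and 2, and 7 and 2, as without it.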

Other observations

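In the deposited count table Ctsa did not follow its FPKM. Its counts summed over the 3 libraries were 4212 in BMM, 1990 in FLM_M and 861 in FLM_G, while its FPKM were 132 ± 1, 197 ± 16 and 223 ± 8 (SD, n = 3). Pltp, the phospholipid transfer protein gene, lies on the opposite strand and shares 495 exon bases with Ctsa, and its FPKM were 28.7 ± 1.2, 6.49 ± 0.50 and 1.38 ± 0.25, in the order of the Ctsa counts. The counts of Pltp were 2941, 5096 and 5143, in the order of the Ctsa FPKM. Ctsb shares 774 exon bases with the opposite-strand gene Fdft1, whose FPKM were 12.8 ± 0.3, 6.98 ± 0.32 and 45.4 ± 2.5, but the counts of Ctsb (2857, 4667 and 1590) did not follow that order. Ctsl shares more, 1742 exon bases, with the opposite-strand gene Gm47123, for which no FPKM were found. The counts of Ctsl were 1174, 1108 and 410, in the order of its FPKM.

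In the count table FLM_G replicate 3 also stood apart from the other FLM_G libraries. It held 67 counts of Ctsk against 312 and 274, 209 of Ctsb against 642 and 739, and 1041 of Ctsd against 2802 and 2901, whereas the FPKM of Ctsk were 1083, 1081 and 1072 in the 3 libraries.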
